A study of Mus musculus with 12 samples.

Results

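The mitosis and G2/M genes are 38 genes whose products drive cells from the end of DNA replication through chromosome segregation and cell division. They were chosen by name, and all 38 were found among the 34607 distinct gene names on the array. Whole liver RNA from 12 mice was hybridised to 1 Agilent one-colour array each. The mice form 3 groups of 4: E2f1-/-, E2f2-/- and wild type, the last described as 129/Sv x C57BL/6. Every group, the wild type included, had received the liver carcinogen diethylnitrosamine (DEN) at 25 mg/kg in the peritoneum on postnatal day 14. From weaning at 1 month all ate a high-fat diet (60% of calories from fat) for 32 weeks, and livers were taken at 9 months of age after a 4 hour fast. No group without DEN or on chow is among these 12 livers, although the source name given to the E2f1-/- samples reads vehicle and chow, against the rest of their labels. No promoter or Cre that would limit either allele to a cell type is named in the labels. Neither the sex of the mice nor the deleted exons are stated in the labels.

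In a dividing cell, cyclin A and cyclin B bind the kinase CDK1, which phosphorylates its way through entry into mitosis until the anaphase promoting complex destroys the cyclins. The genes of this programme are transcribed late in the cycle by B-MYB (Mybl2) and FOXM1 together with the MuvB complex, whereas E2F1 and E2F2 are best known as activators of the genes that start DNA replication. Most hepatocytes of an adult liver do not divide, and mitotic transcripts are low there until injury, partial removal or a tumour brings cells back into the cycle.

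The targeted genes did not behave alike. On a log2 scale relative to the 75th percentile of each array, the E2f1 probe read -0.72, -0.91, -0.64 and -0.79 in the E2f1 knockout livers and -0.27 to 0.45 in wild type (-0.82 ± 0.19, SE; limma adjusted p = 0.0114), and it was well above background in all. The E2f2 probe read 0.19 to 0.73 in the livers labelled E2f2 knockout and 0.48 to 1.04 in wild type, a difference of -0.26 ± 0.21 that did not pass (limma adjusted p = 0.408). It was lowest in the E2f1 knockout livers, at -0.20, -1.10, -0.86 and -0.65, all below every liver of the other groups. There it was lower than in wild type by a log2 change of -1.5 ± 0.21 (limma adjusted p = 0.00141), and the E2f2-labelled livers lay above the E2f1 knockout by 1.24 ± 0.21 (0.00954). Whether either probe lies in the deleted sequence is not known here. The livers labelled E2f2 knockout are therefore called E2f2-labelled, and no value here shows their deletion.

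Of the 38 genes, 31 had a probe well above background on at least 3 arrays of a group and were tested. The other 7 are the kinases Aurkb, Bub1, Melk and Ttk, the motors Kif11 and Kif2c and the kinetochore protein gene Cenpf. Bub1, Melk and Kif11 were above background on 1 wild type array each and on no array of either other group. The wild type arrays alone brought 6 of the tested genes into the test (Cdkn3, Bub1b, Nusap1, Anln, Ect2 and Top2a), so a difference was built into their selection. Another 17 were above background on all 12 arrays, and these carry no such selection. All levels below are log2 units relative to the array's 75th percentile, 1 unit being a 2-fold step, and no probe's level is compared with another's.

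In E2f1 knockout livers 25 of the 31 tested genes were lower than in wild type and 0 were higher (limma, adjusted p under 0.05), with 0 higher at an unadjusted p under 0.05 too. Of all 20572 genes tested, 7.41% were called lower and 13.2% higher, 20.6% in all, and 33.8% had an unadjusted p under 0.05. In E2f2-labelled livers 24 were lower and 0 higher, also 0 at an unadjusted p under 0.05. Among all genes 7.58% were called lower and 14.6% higher there, 22.2% in all, and 36.3% had an unadjusted p under 0.05. The median change was -1.70 and -1.74 in these comparisons, where the median of all genes was 0.13 and 0.18. With the genes that no array of a group measured above background set at their bounds (Bub1b and Top2a, and in E2f2-labelled livers Nusap1), the medians were -1.41 and -1.71. Among the 17 genes above background on all 12 arrays, 12 were called lower in each comparison, with medians of -1.32 and -1.46. When only genes above background on all 12 arrays were tested, 7.12% and 7.1% of them were called lower. The 2 comparisons share the wild type livers, so they are not independent of each other, and 23 genes were called lower in both. No share of all genes is given here for calls in both. In whole liver, fewer cells of a type and less RNA per cell cannot be told apart.

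**Figure D1:**
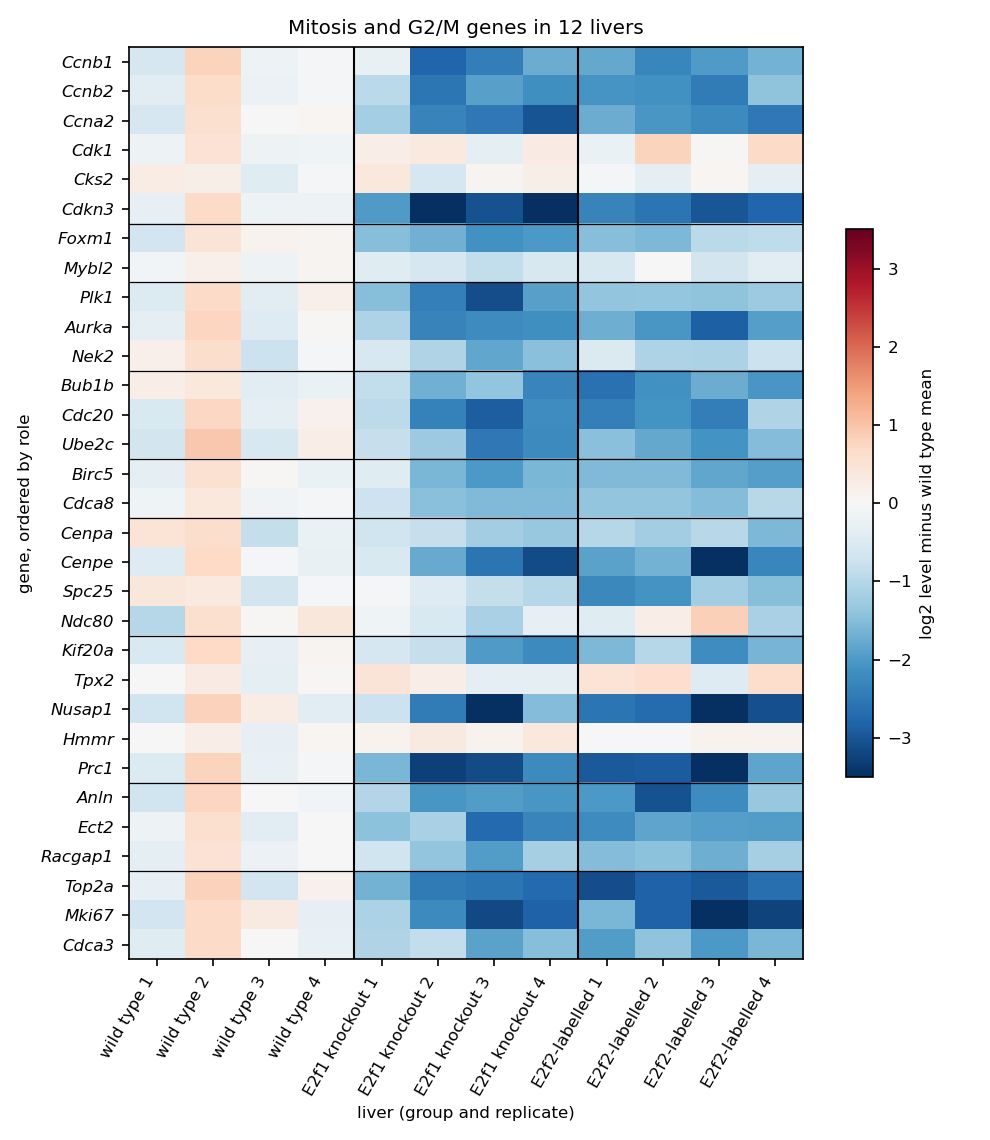
Heat map of 31 tested genes (rows, ordered by role and separated by lines) in 12 livers (columns); colour is the log2 level minus that gene's wild type mean, red higher and blue lower. The columns of the E2f1 knockout and E2f2-labelled livers are blue for most genes, wild type liver 2 is the reddest column, and the rows of Cdk1, Cks2, Tpx2 and Hmmr stay pale throughout.

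Individual livers differed more within wild type and E2f1 knockout than within the E2f2-labelled group. Taking for each liver the median over the 31 genes of the deviation from the wild type mean, the wild type livers lay at -0.34, 0.61, -0.21 and -0.04. The E2f1 knockout livers lay at -0.76, -1.59, -1.99 and -1.90, and the E2f2-labelled livers at -1.60, -1.65, -1.93 and -1.53. None of these 8 livers reached the lowest wild type liver. Wild type liver 2 was the highest of its group in 29 of 31 genes, where a share of 13.2% was found over all genes, and E2f1 knockout liver 1 was the highest of its group in 27, where the share over all genes was 18.4%. Without wild type liver 2, 18 genes were called lower in E2f1 knockout livers and 24 in the E2f2-labelled ones, with medians of -1.43 and -1.53.

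Each slide held 1 liver of each group. Within the 4 slides the median change in E2f1 knockout was -0.44, -2.12, -1.89 and -1.96, and 25, 30, 28 and 28 of 31 genes were lower. In E2f2-labelled livers it was -1.22, -2.36, -1.56 and -1.46, with 29, 29, 27 and 28 lower. The weakest slide in the E2f1 comparison is the slide of E2f1 knockout liver 1. All livers of a group sat in the same column of their slides, so column and genotype cannot be told apart. With the slide as a block in the fit, 25 genes were called lower in each comparison with wild type. With normexp background correction, which shrinks dim signals, 18 genes were called in each comparison and the medians were -0.65 and -0.69.

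**Figure D2:**
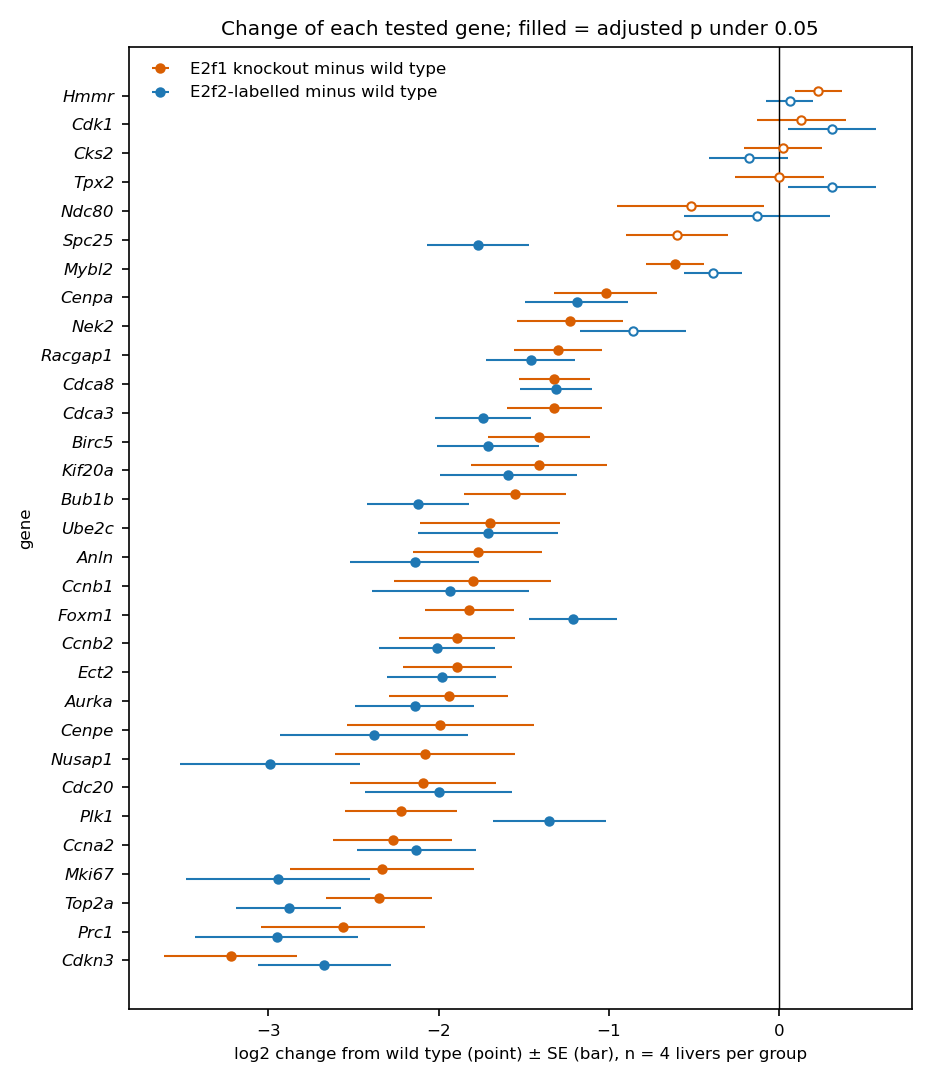
Log2 change from wild type (points) with SE (bars) of the 31 tested genes in E2f1 knockout (orange) and E2f2-labelled livers (blue), n = 4 livers per group; filled points passed adjusted p under 0.05. Changes run from -3.22 for Cdkn3 to 0.31 for Cdk1 and Tpx2, and Spc25 has the widest gap between its colours.

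Because so many of these genes were lower together, their promoters were read for the elements that textbooks assign to late cell cycle genes. These are the CHR (letters TTTGAA or TTCGAA), bound by MuvB, and the CCAAT box, bound by NF-Y. The promoters shown belong to the mitotic cyclin Ccnb1, its kinase Cdk1, the CDK phosphatase Cdkn3, the anaphase activator Cdc20 and the topoisomerase Top2a, whose window held the most CHR matches of the list. Each is the 200 bases before the RefSeq transcription start in GRCm38.p6, written 5′ to 3′ on the gene's strand, with CHR and CCAAT letters of either strand in capitals.
Ccnb1 (chr13:100786487-100786686, minus strand): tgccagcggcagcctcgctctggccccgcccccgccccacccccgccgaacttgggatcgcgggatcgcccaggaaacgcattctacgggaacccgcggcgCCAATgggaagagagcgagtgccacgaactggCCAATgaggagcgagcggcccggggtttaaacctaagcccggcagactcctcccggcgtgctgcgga
Cdk1 (chr10:69352913-69353112, minus strand): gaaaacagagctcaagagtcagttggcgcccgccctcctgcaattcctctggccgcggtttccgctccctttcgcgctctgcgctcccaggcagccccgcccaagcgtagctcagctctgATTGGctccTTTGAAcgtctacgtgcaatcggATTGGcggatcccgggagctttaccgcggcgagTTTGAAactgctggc
Cdkn3 (chr14:46760341-46760540, plus strand): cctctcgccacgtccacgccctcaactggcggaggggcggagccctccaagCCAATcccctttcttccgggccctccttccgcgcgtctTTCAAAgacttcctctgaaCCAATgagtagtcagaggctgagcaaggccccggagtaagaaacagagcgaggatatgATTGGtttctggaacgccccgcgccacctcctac
Cdc20 (chr4:118437344-118437543, minus strand): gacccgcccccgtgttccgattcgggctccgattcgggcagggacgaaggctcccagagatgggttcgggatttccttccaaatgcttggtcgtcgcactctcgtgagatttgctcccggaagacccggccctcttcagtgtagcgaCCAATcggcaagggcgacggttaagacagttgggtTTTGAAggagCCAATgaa
Top2a (chr11:99024190-99024389, minus strand): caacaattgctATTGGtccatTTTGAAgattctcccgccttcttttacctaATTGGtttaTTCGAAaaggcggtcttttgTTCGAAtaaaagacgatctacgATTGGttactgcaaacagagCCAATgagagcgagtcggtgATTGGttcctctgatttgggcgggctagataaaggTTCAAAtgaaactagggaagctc

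Ccnb1 carried 2 CCAAT boxes 32 bases apart on the same strand and no CHR of these letters. Cdk1 carried CHR letters 71 and 15 bases before the start, written as positions -71 and -15, each downstream of a CCAAT box on the opposite strand at -80 and -48. Cdkn3 had 1 CHR, on the opposite strand at -111. Cdc20 had a CHR at -18 between CCAAT boxes at -53 and -8. Top2a had 4 CHR and 6 CCAAT matches in its window, the CHR nearest the start at -23.

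Promoter windows, from 250 bases before to 50 after the start, were at hand for 33 of the 38 genes. CHR letters occurred in 25 of the 33 genes (75.8%) and in 21.7% of all 27025 genes with a window. A CHR within 50 bases of the start occurred in 22 genes (66.7%) and in 6.12% of all. CCAAT occurred in 26 genes (78.8%; all genes 41.1%), and both elements in 22 (66.7%; all genes 8.61%). CCAAT boxes on the same strand 31 to 34 bases apart, a spacing chosen after the windows had been read, were found in 9 genes (27.3%; all genes 1.04%), among them Ccnb1, Ccnb2, Aurka, Nek2 and Spc25. An E2F site in the strict letters TTTCCCGC, TTTCGCGC, TTTGCCGC or TTTGGCGC was found in 1 gene, Cdk1 (3.03%; all genes 2.6%). Both strands were searched, and CCAAT matches on opposite strands can overlap, as in Ube2c.

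The 20 genes with a window that were called lower in both comparisons held both elements in 15 cases (75%), and the other 13 held them in 7 (53.8%). Those 13 are not a set of unchanged genes, as Melk, Bub1, Ttk, Cenpf, Kif11 and Kif2c were not tested. Mybl2 and Nek2 were called lower in E2f1 knockout only, and Spc25 in E2f2-labelled livers only. Mybl2, Melk, Birc5 and Nusap1 held none of the 3 motifs in these windows, and of these Birc5 and Nusap1 were called lower in both comparisons. Among genes called in neither comparison, the Cks2 window held 4 CCAAT matches and the Hmmr window 5, with a CHR at position 9. A match of letters is a description and shows no binding, and a window without them shows nothing about the factor.

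**Figure D3:**
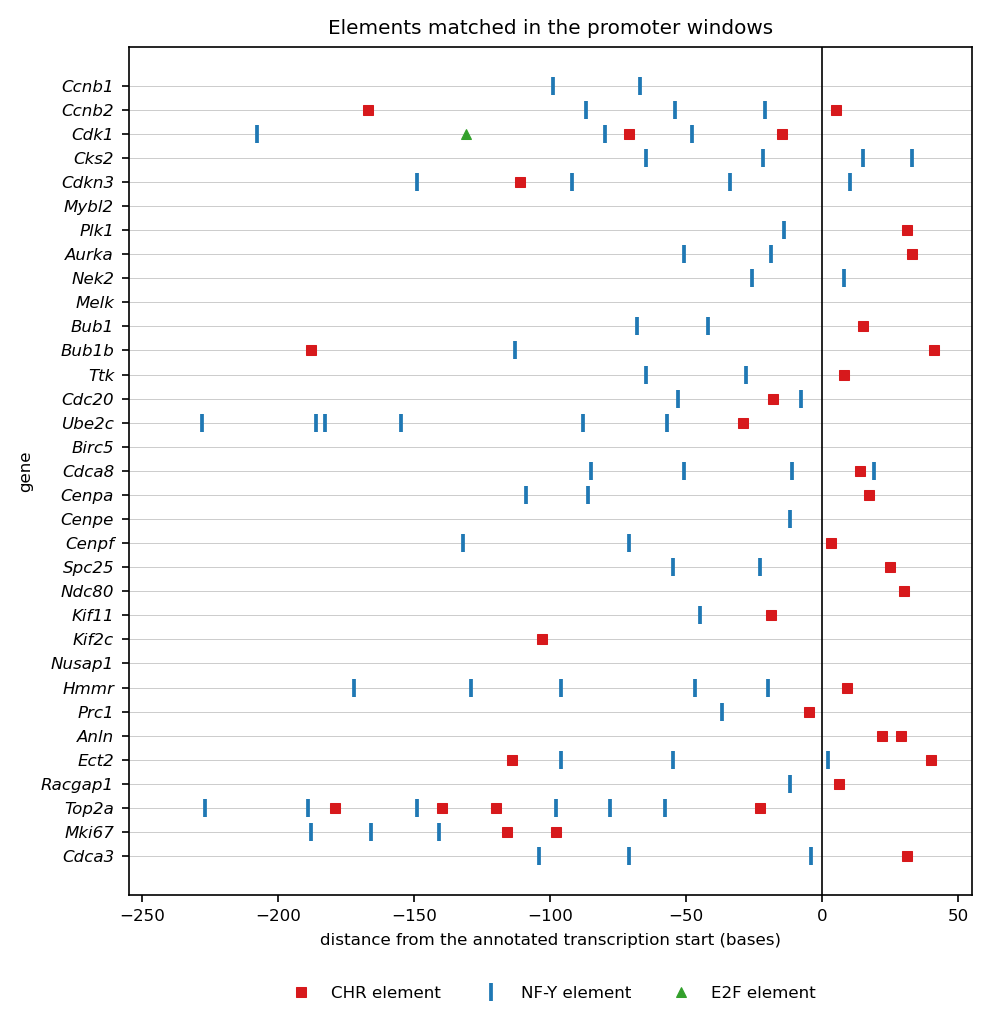
Positions of CHR (red squares), NF-Y (CCAAT, blue ticks) and E2F elements (green triangle) relative to the annotated transcription start, in bases, for the 33 genes with a promoter window (rows). CHR matches gather near the start, 22 genes having a match within 50 bases of it, and the E2F match is in Cdk1 alone.

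Among cyclins, CDK1 and its regulators, 4 of 6 genes were lower in each comparison, with medians of -1.84 and -1.97. The shares over all genes were 7.41% and 7.58%. Ccnb1, the B cyclin that takes cells into mitosis, is read by a probe on chromosome 13, mm9 positions 101548722 to 101548781. It stood at -1.16, 0.21, -0.77 and -0.61 in wild type and at -0.85, -3.35, -3.01 and -2.32 in E2f1 knockout livers. E2f1 knockout liver 1 lay inside the wild type range and the other 3 far below it. The difference was -1.80 ± 0.46 (SE; limma adjusted p = 0.0178), and it missed the threshold without wild type liver 2 or without E2f1 knockout liver 3 (largest adjusted p 0.0582 over its alternatives). The E2f2-labelled livers stood at -2.38, -2.87, -2.56 and -2.24, all below wild type (-1.93 ± 0.46; limma adjusted p = 0.0125). A dimmer tested Ccnb1 probe changed by -2.08 ± 0.62 in E2f1 knockout (limma over all probes, adjusted p = 0.0347). Its -1.64 ± 0.62 in E2f2-labelled livers did not pass (0.079).

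Cyclin A, encoded by Ccna2 and active from S phase into early mitosis, read -1.02, 0.14, -0.43 and -0.35 in wild type. It read -1.61, -2.76, -2.93 and -3.44 in E2f1 knockout livers and -2.16, -2.47, -2.65 and -2.91 in E2f2-labelled livers, with no overlap. The changes were -2.27 ± 0.35 (limma adjusted p = 0.00212) and -2.13 ± 0.35 (0.00244). Ccnb2, the other B cyclin of somatic cells, fell by 1.89 ± 0.34 and 2.01 ± 0.34.

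Cdkn3 is a phosphatase that acts on CDK1 and CDK2. Its probe (chromosome 14, mm9 positions 47386895 to 47386954) read -1.74, -0.77, -1.64 and -1.64 in wild type. In E2f1 knockout it read -3.44, -5.24, -4.50 and -5.50, and in E2f2-labelled livers -3.78, -4.01, -4.44 and -4.22. All 8 of these livers lay below every wild type liver, but 1 array of each group was well above background, and Cdkn3 entered the test through wild type alone. The fitted changes were -3.22 ± 0.39 (limma adjusted p = 0.000584) and -2.67 ± 0.39 (0.00116). With normexp the Cdkn3 changes were -0.79 and -0.64. Cks2, a small subunit of CDK complexes, differed by 0.02 ± 0.23 and -0.18 ± 0.23 and did not pass (adjusted p = 0.971 and 0.603).

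Cdk1, the kinase at the centre of the programme, gave different readings from its probes, a flat and a lower one. The brightest probe (chromosome 10, mm9 positions 68799513 to 68799572) read -2.61, -1.93, -2.62 and -2.58 in wild type and -2.21, -2.08, -2.78 and -2.15 in E2f1 knockout livers. It read -2.67, -1.64, -2.39 and -1.77 in E2f2-labelled livers. The groups overlapped, with differences of 0.13 ± 0.26 (limma adjusted p = 0.784) and 0.31 ± 0.26 (0.411).

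The next Cdk1 probe, at positions 68801072 to 68801131, read -2.32, -1.42, -3.24 and -1.92 in wild type and -3.33, -5.03, -4.27 and -5.02 in E2f1 knockout. In E2f2-labelled livers it read -3.42, -5.03, -3.96 and -3.64, and neither group reached the wild type values. It changed by -2.19 ± 0.48 and -1.79 ± 0.48 (limma over all probes, adjusted p = 0.00899 and 0.0208) and was above background on 1 array of each of these groups. A probe that overlaps it, at positions 68801053 to 68801112, was above background on no array. Which reading stands for the Cdk1 transcript cannot be settled from these arrays.

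Tpx2, which activates Aurora A on the spindle, showed the same split. Its brightest probe (chromosome 2, mm9 positions 152720285 to 152720344) differed by 0.00 ± 0.26 and 0.31 ± 0.26 (adjusted p = 0.995 and 0.428). The other tested Tpx2 probe, at positions 152719476 to 152719535, was above background on all wild type arrays and on 0 of 4 arrays of each other group, and was at least 2.56-fold lower in E2f1 knockout and at least 3.16-fold lower in E2f2-labelled livers (limma over all probes, adjusted p = 0.00577 and 0.00422). Such a bound sets the wild type mean against the higher of the array's lowest signal above background and the probe's own. A p value printed beside a bound, here and below, tests the fitted change and not the bound. Over the 41 tested probes of all members, 34 were lower in the E2f1 knockout and 32 in E2f2-labelled livers, and 0 were higher, where 6.79% and 7.14% of all probes were lower. The dimmer tested probes of Ccnb1, Cdk1, Tpx2, Mybl2, Ube2c and Cdca8 and the dimmest of Birc5 entered through wild type arrays alone. A difference was built into their selection, as for the genes named earlier, and the probe counts include them all.

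**Figure D4:**
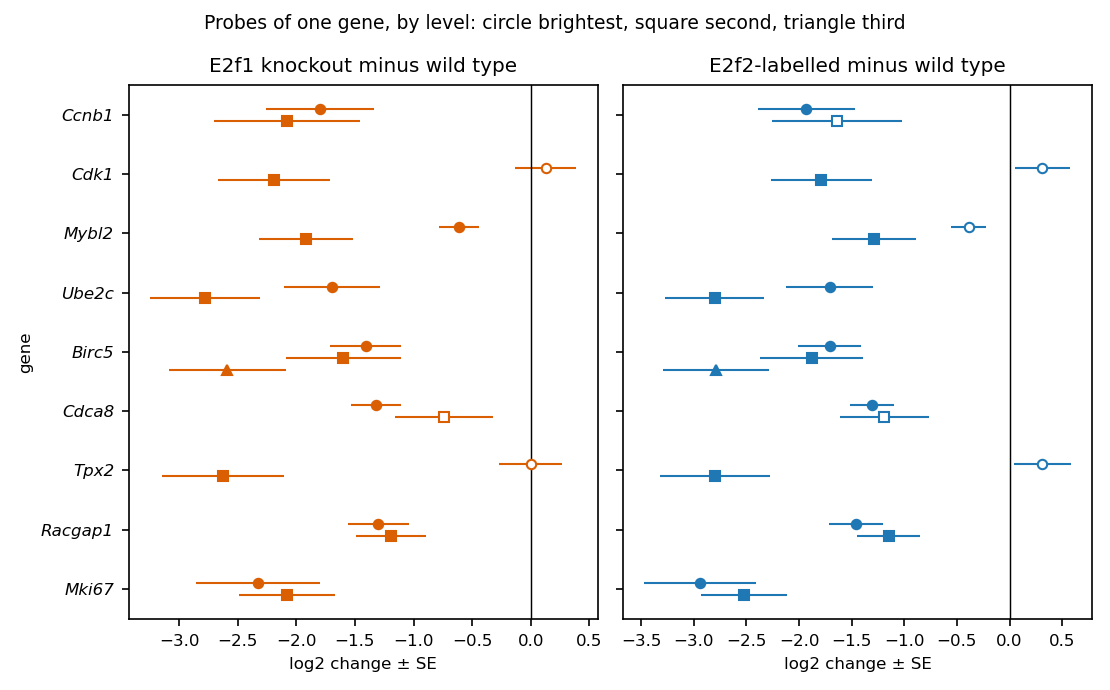
Log2 change from wild type (points) with SE (bars) for each tested probe of the 9 genes with more than 1 tested probe, in E2f1 knockout (left) and E2f2-labelled livers (right); circles are the brightest probe, squares the next, the triangle the last, and filled symbols passed adjusted p under 0.05. For Cdk1 and Tpx2 the circle lies at or above 0 and the square near or below -1.79.

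Both transcription factors of the list were lower in E2f1 knockout livers, and of them Foxm1 was also called in E2f2-labelled livers. Foxm1, the forkhead activator of mitotic genes, read -2.36, -1.23, -1.58 and -1.60 in wild type. It read -3.19, -3.36, -3.81 and -3.70 in the E2f1 knockout and -3.18, -3.26, -2.62 and -2.57 in E2f2-labelled livers. Both groups lay wholly below wild type, with changes of -1.82 ± 0.26 (limma adjusted p = 0.00137) and -1.21 ± 0.26 (0.00729). The latter call was lost with normexp (-0.29, adjusted p = 0.176). In E2f1 knockout its probe was well above background in 2 of the 4 livers.

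Mybl2, which encodes B-MYB, read -0.50, -0.23, -0.57 and -0.31 in wild type and -0.82, -1.0, -1.27 and -0.97 in E2f1 knockout. In E2f2-labelled livers it read -0.96, -0.38, -1.05 and -0.77, and 1 of these lay within the wild type range. Its change was -0.61 ± 0.17 (limma adjusted p = 0.026) and -0.39 ± 0.17, which did not pass (0.127). The E2f1 knockout call was among the least stable, being lost in 7 of 20 alternatives (adjusted p from 0.00317 to 0.0804). A dimmer Mybl2 probe was above background on all wild type arrays and on no other array, and was at least 2.04-fold and at least 2.13-fold lower (limma over all probes, adjusted p = 0.00711 and 0.0375).

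Of the mitotic kinases, Plk1 and Aurka were lower in both groups. Polo-like kinase 1, which drives mitotic entry and spindle assembly, read -0.03, 1.10, 0.07 and 0.62 in wild type. It read -1.04, -1.95, -2.66 and -1.46 in E2f1 knockout livers and the nearly equal -0.93, -0.91, -0.97 and -0.84 in E2f2-labelled livers. Neither group overlapped wild type, and Plk1 changed by -2.22 ± 0.33 (limma adjusted p = 0.00161) and -1.35 ± 0.33 (0.0129). Aurora A, the centrosomal kinase encoded by Aurka, read -0.72, 0.33, -0.85 and -0.38 in wild type. It read -1.48, -2.74, -2.61 and -2.55 in the E2f1 knockout and -2.11, -2.45, -3.28 and -2.34 in E2f2-labelled livers, again without overlap (-1.94 ± 0.35 and -2.14 ± 0.35; limma adjusted p = 0.00374 and 0.0021). Nek2, which splits the centrosomes, fell by 1.23 ± 0.31 in E2f1 knockout, while its -0.86 ± 0.31 in E2f2-labelled livers did not pass (adjusted p = 0.0689). Melk, the remaining kinase of this role, was not tested.

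All 3 tested genes of the spindle checkpoint and anaphase promoting complex were lower in both groups, where 7.41% and 7.58% of all genes were. Cdc20, which turns that complex on at anaphase, read 0.05, 1.31, 0.27 and 0.73 in wild type. It read -0.32, -1.78, -2.30 and -1.58 in the E2f1 knockout and -1.81, -1.49, -1.84 and -0.47 in E2f2-labelled livers. The groups did not overlap, although E2f1 knockout liver 1 came close to wild type liver 1, and the changes were -2.09 ± 0.43 (limma adjusted p = 0.00719) and -2.0 ± 0.43 (0.00815). The checkpoint kinase gene Bub1b read -3.47, -3.34, -4.10 and -3.95 in wild type, -4.56, -5.38, -5.09 and -6.03 in the E2f1 knockout and -6.31, -5.83, -5.44 and -5.74 in E2f2-labelled livers. It was above background on 3 wild type arrays and no others, which leaves a reduction of at least 1.06-fold and at least 1.17-fold. The fitted changes, not these bounds, were tested (limma adjusted p = 0.00525 and 0.001). Both calls were lost with normexp (-0.07, adjusted p = 0.743 and -0.09, adjusted p = 0.635). Ube2c, the ubiquitin-conjugating enzyme of the complex, fell by 1.70 ± 0.41 and 1.71 ± 0.41.

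The chromosomal passenger complex guards the attachment of chromosomes to the spindle. Its survivin subunit gene Birc5 read 1.66, 2.53, 2.03 and 1.78 in wild type, 1.57, 0.41, -0.01 and 0.40 in the E2f1 knockout and 0.45, 0.45, 0.19 and 0.07 in E2f2-labelled livers. E2f1 knockout liver 1 fell just short of the wild type range and the rest lay well below it. Birc5 changed by -1.41 ± 0.30 (limma adjusted p = 0.0082) and -1.71 ± 0.30 (0.00323). Cdca8, which encodes borealin, read 0.62, 1.14, 0.64 and 0.69 in wild type, 0.05, -0.68, -0.78 and -0.78 in the E2f1 knockout and -0.60, -0.60, -0.75 and -0.21 in E2f2-labelled livers. These groups stood clear of wild type, with changes of -1.32 ± 0.21 and -1.31 ± 0.21 (limma adjusted p = 0.00254 and 0.00218). A dimmer tested Cdca8 probe passed in neither comparison (-0.74 ± 0.42 and -1.19 ± 0.42; limma over all probes, adjusted p = 0.248 and 0.0613). Aurkb, the kinase of the complex, was not tested.

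Of 4 tested centromere and kinetochore genes, 2 were lower in E2f1 knockout and 3 in the E2f2-labelled livers. The shares over all genes were 7.41% and 7.58%. Cenpe, the kinetochore motor, read -0.63, 0.52, -0.22 and -0.45 in wild type and -0.72, -1.95, -2.74 and -3.31 in E2f1 knockout. It read -2.06, -1.85, -3.91 and -2.48 in E2f2-labelled livers. Both groups lay below wild type, E2f1 knockout liver 1 by a narrow margin, with changes of -1.99 ± 0.55 (limma adjusted p = 0.0251) and -2.38 ± 0.55 (0.0109). The former call was lost in 4 of 19 alternatives (up to 0.0773). Cenpa, the centromeric histone H3 variant, read -0.05, 0.09, -1.35 and -0.75 in wild type and -1.23, -1.34, -1.74 and -1.84 in E2f1 knockout. Wild type liver 3 overlapped these values, and the change of -1.02 ± 0.30 (limma adjusted p = 0.0297) was lost in 6 of 20 alternatives (up to 0.0911). In E2f2-labelled livers Cenpa read -1.51, -1.73, -1.48 and -2.09 (-1.19 ± 0.30; 0.0149).

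Spc25 and Ndc80 are partners in the complex that grips microtubules. Spc25, described here because its values were seen to differ between E2f1 knockout and E2f2-labelled livers, read 2.84, 2.77, 1.79 and 2.36 in wild type and 2.36, 1.99, 1.60 and 1.43 in E2f1 knockout. It read 0.18, 0.35, 1.21 and 0.96 in E2f2-labelled livers, below every other liver. Spc25 fell by 1.77 ± 0.30 in E2f2-labelled livers (limma adjusted p = 0.00279) and differed by -0.60 ± 0.30 in E2f1 knockout, which did not pass (0.19). Ndc80, above background on 3 wild type, 2 E2f1 knockout and 3 E2f2-labelled arrays, differed by -0.52 ± 0.43 and -0.13 ± 0.43 (adjusted p = 0.44 and 0.857). Cenpf was not tested.

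**Figure D5:**
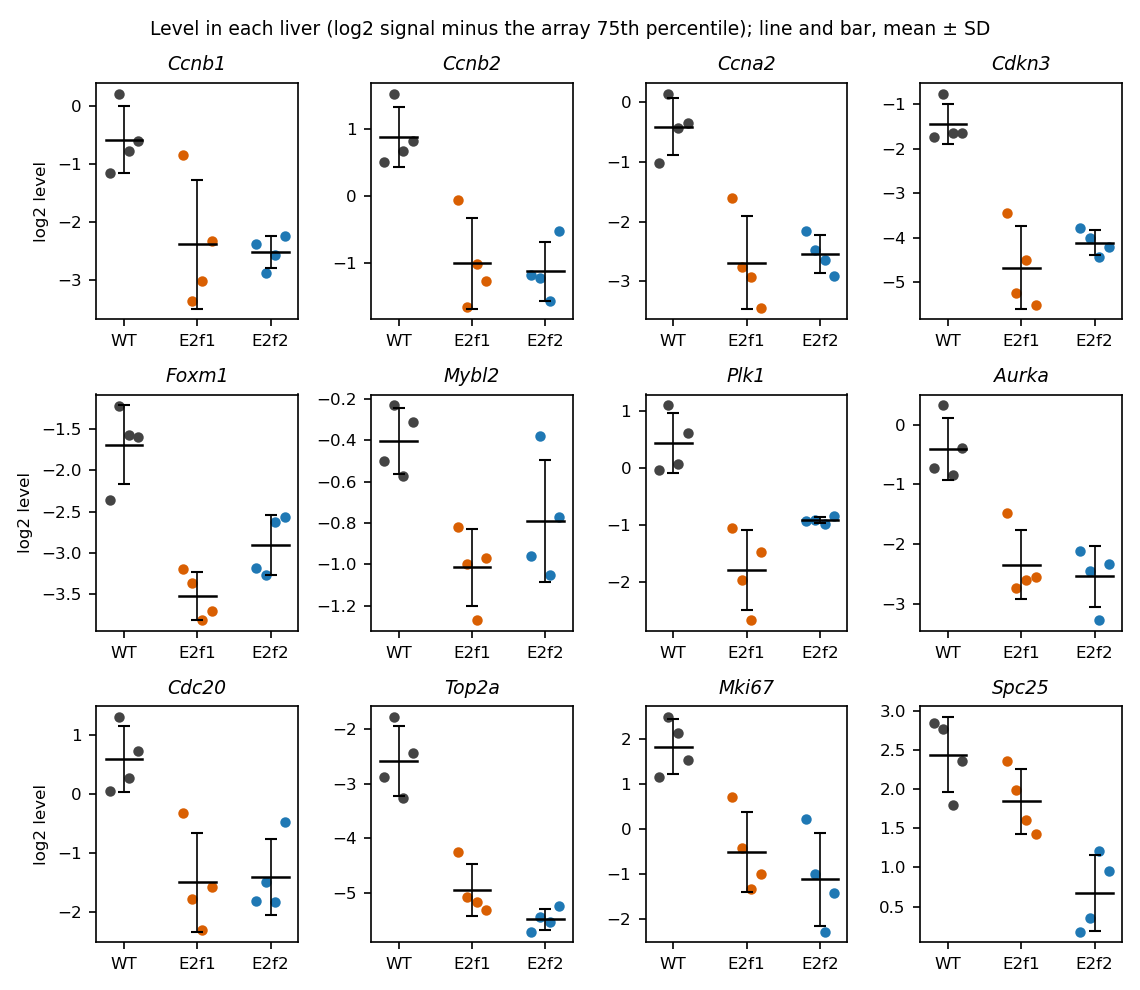
Log2 level in each liver (points) of 12 genes, with group mean (line) and SD (bar), n = 4; WT is wild type, E2f1 the E2f1 knockout and E2f2 the E2f2-labelled livers, and each panel has its own vertical axis. Wild type points lie above the knockout points in most panels; 1 E2f1 knockout liver reaches wild type in Ccnb1, 1 E2f2-labelled liver in Mybl2, and the E2f1 knockout overlaps wild type in Spc25.

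Among spindle motors and microtubule proteins, 3 of 5 tested genes were lower in each group, where 7.41% and 7.58% of all genes were. Prc1, which bundles the microtubules of the central spindle, read -0.75, 0.52, -0.52 and -0.30 in wild type. It read -1.87, -3.53, -3.39 and -2.48 in the E2f1 knockout and -3.21, -3.16, -4.37 and -2.11 in E2f2-labelled livers, without overlap. The changes of -2.56 ± 0.48 (limma adjusted p = 0.00474) and -2.95 ± 0.48 (0.00224) are among the largest of the list. Nusap1, which links microtubules to chromosomes, read -2.80, -1.28, -1.82 and -2.47 in wild type, -2.85, -4.55, -5.65 and -3.62 in the E2f1 knockout and -4.64, -4.78, -5.71 and -5.17 in E2f2-labelled livers. The highest E2f1 knockout liver nearly met the lowest wild type liver, and the change there was -2.08 ± 0.53 (limma adjusted p = 0.017), while in E2f2-labelled livers, with no array above background, Nusap1 was at least 3.61-fold lower (0.00323). Both Nusap1 calls were lost with normexp (adjusted p = 0.144 and 0.0784). Kif20a, a motor of cytokinesis, fell by 1.41 ± 0.40 and 1.59 ± 0.40, the former lost in 7 of 19 alternatives. The latter call was lost with normexp (limma adjusted p = 0.089). Hmmr, a microtubule and hyaluronan binding protein gene, lay at 0.24 to 0.90 in all 12 livers and did not pass (0.23 ± 0.14 and 0.06 ± 0.14; adjusted p = 0.298 and 0.803). Kif11 and Kif2c were not tested.

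All 3 cytokinesis genes were lower in both groups, where 7.41% and 7.58% of all genes were. Ect2 and Anln entered the test through wild type arrays alone. Ect2, the exchange factor that switches on RhoA at the cleavage furrow, read -1.73, -1.0, -1.92 and -1.56 in wild type. It read -2.99, -2.68, -4.26 and -3.85 in the E2f1 knockout and -3.74, -3.40, -3.48 and -3.5 in E2f2-labelled livers, with no overlap, and 2 of 4 arrays of each of these groups were above background. The changes were -1.89 ± 0.32 (limma adjusted p = 0.00291) and -1.98 ± 0.32 (0.00201). Racgap1, the partner of Ect2 in the central spindle, read -0.83, 0.01, -0.70 and -0.49 in wild type, -1.21, -1.87, -2.45 and -1.67 in the E2f1 knockout and -2.02, -1.93, -2.22 and -1.65 in E2f2-labelled livers. It was below wild type in all 8 livers (-1.30 ± 0.26 and -1.46 ± 0.26; limma adjusted p = 0.00612 and 0.00344). Anln, the scaffold of the contractile ring, fell by 1.77 ± 0.38 and 2.14 ± 0.38, and both calls were lost with normexp (adjusted p = 0.0777 and 0.0958).

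The remaining genes serve chromosome structure and proliferation at large. Top2a, the topoisomerase that untangles sister chromatids, has its probe on chromosome 11, mm9 positions 98855522 to 98855581. It read -2.87, -1.78, -3.26 and -2.45 in wild type, -4.24, -5.06, -5.16 and -5.30 in the E2f1 knockout and -5.70, -5.43, -5.53 and -5.24 in E2f2-labelled livers. None of the latter 8 arrays was above background and 3 of 4 wild type arrays were, so Top2a entered the test through wild type alone. It was at least 2.31-fold and at least 2.55-fold lower (limma adjusted p = 0.000937 and 0.00017), and both calls were lost with normexp (-0.29, adjusted p = 0.191 and -0.26, adjusted p = 0.213). Mki67, whose product Ki-67 coats mitotic chromosomes and marks cycling cells, was well above background in every liver. It read 1.15, 2.49, 2.14 and 1.54 in wild type, 0.71, -0.41, -1.32 and -1.0 in the E2f1 knockout and 0.22, -0.99, -2.27 and -1.41 in E2f2-labelled livers. The groups did not overlap, and Mki67 changed by -2.33 ± 0.54 (5.04-fold lower; limma adjusted p = 0.0112) and -2.94 ± 0.54 (7.67-fold lower; 0.00381).

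Cdca3, a trigger of mitotic entry, read -0.61, 0.50, -0.17 and -0.44 in wild type, -1.22, -1.05, -2.05 and -1.67 in the E2f1 knockout and -2.14, -1.58, -2.20 and -1.77 in E2f2-labelled livers. All 8 of the latter values lay below wild type (-1.32 ± 0.28 and -1.74 ± 0.28; limma adjusted p = 0.0077 and 0.00195). Over the whole list, every E2f1 knockout liver lay below every wild type liver in 22 of 31 genes, against 6.77% of all genes tested. In E2f2-labelled livers this held for 24 genes, against 7.05% of all. Both counts include the 6 genes that entered the test through wild type arrays alone, whose selection favoured such a separation. A called reduction with a fitted change of at least 2-fold was seen in 24 genes in each comparison, against 4.84% and 5.4% of all genes. These counts include the same 6 genes and rest on fitted changes, also where no array of a group was above background. Bub1b is among them, although its bounds were at least 1.06-fold and at least 1.17-fold. With normexp the medians over the 31 genes were -0.65 and -0.69.

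Set directly against each other, E2f1 knockout and E2f2-labelled livers differed in 0 of the 31 genes (limma, adjusted p under 0.05), where 0.724% of all genes were called lower and 0.914% higher, 1.64% in all. At an unadjusted p under 0.05 there were 3 genes, and 11.5% of all genes reached that. Foxm1 and Plk1 were higher in E2f2-labelled than in E2f1 knockout livers by 0.61 ± 0.26 (adjusted p = 0.371) and 0.87 ± 0.33 (0.299). Spc25 was lower by a log2 change of -1.17 ± 0.30 (adjusted p = 0.0913, the smallest of the list). Every E2f2-labelled liver lay below every E2f1 knockout liver in Spc25, a separation found in 3.83% of all genes. With array weights its change was -1.33 (adjusted p = 0.0215), the only member then called. The median difference over the 31 genes was -0.16, and it turned to 0.09 without E2f1 knockout liver 1 and to 0.02 without E2f2-labelled liver 3. Missing the threshold does not show that the groups are alike.

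Other genes of mitosis, 116 in a list written from general knowledge but with earlier results of these data known, moved less uniformly. Of 81 tested, 31 were lower and 3 higher in E2f1 knockout (median -0.28), and 32 were lower and 3 higher in E2f2-labelled livers (median -0.34). Depdc1b, Arhgap11a, Kifc1, Spag5, Psrc1, Cdca2 and Sgo1, named below, and others of the list entered the test through wild type arrays alone. A difference was built into the selection of these genes, and the counts include them. Over all genes 7.41% and 7.58% were lower. A list of cytokinesis genes and others of cell division had 5 of 8 and 6 of 8 lower, and spindle and centrosome genes 10 of 18 and 9 of 18. The former counts hold 2 genes that are not of cytokinesis, Pif1 and Trip13. Depdc1b, which binds RhoA regulators, was at least 4.2-fold lower in E2f1 knockout (adjusted p = 0.000393) and fell by 1.85 ± 0.32 in E2f2-labelled livers. The helicase gene Pif1 fell by 3.77 ± 0.54 and 2.33 ± 0.54, and the checkpoint ATPase gene Trip13 by 1.08 ± 0.23 and 1.09 ± 0.23. Arhgap11a was at least 1.24-fold and at least 1.37-fold lower. Rhoa and Cenpj differed by -0.15 ± 0.14 and 0.08 ± 0.20 in E2f1 knockout and did not pass.

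In the spindle list, Tacc3, a microtubule stabiliser of the spindle, fell by 1.2 ± 0.18 (limma adjusted p = 0.00165) and 1.30 ± 0.18. The minus-end motor gene Kifc1 fell by 1.99 ± 0.30 in E2f1 knockout and was at least 4.21-fold lower in E2f2-labelled livers. Spag5 was at least 1.64-fold and 1.94-fold lower, and Psrc1 at least 8.83-fold and 10.4-fold lower although wild type liver 3 read -3.39 where the other wild type livers read -0.38 to 0.87. Numa1 and Sass6 differed by 0.02 ± 0.14 and -0.02 ± 0.21 in E2f1 knockout and did not pass.

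Cohesin and condensin genes split. The condensin gene Ncaph fell by 1.76 ± 0.21 (limma adjusted p = 0.000557) and 2.02 ± 0.21, and the cohesin protector Cdca5 by 1.46 ± 0.26 and 1.94 ± 0.26. The condensin ATPases Smc2 and Smc4 fell by 0.74 ± 0.18 and 0.62 ± 0.16 in E2f1 knockout. In all, 4 of 16 were lower in E2f1 knockout and 6 of 16 in E2f2-labelled livers, against 7.41% and 7.58% of all genes. Stag1 and Pds5a, which hold cohesin on chromosomes throughout the cycle, differed by 0.00 ± 0.15 and 0.02 ± 0.18 in E2f1 knockout and did not pass.

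Checkpoint genes and core subunits of the anaphase promoting complex mostly did not pass, with 1 of 15 lower and 1 higher in E2f1 knockout and 2 lower and 1 higher in the E2f2-labelled livers. Among all genes 20.6% and 22.2% were called in either direction, so these counts are near or below the background. Mad2l1, the inhibitor at the heart of the checkpoint, was lower in both groups (-0.83 ± 0.21 and -1.12 ± 0.21; limma adjusted p = 0.0164 and 0.00412). Pttg1, which encodes securin, the lock on separase, went in opposite directions. It read 1.89, 2.21, 2.04 and 1.73 in wild type, 4.54, 4.42, 4.73 and 4.34 in the E2f1 knockout and 0.70, 0.90, 0.99 and 0.78 in E2f2-labelled livers. The 3 groups were fully separate, with a rise of 2.54 ± 0.15 (limma adjusted p = 1.65e-06) and a change of -1.12 ± 0.15 (0.00064), and E2f2-labelled differed from E2f1 knockout livers by -3.66 ± 0.15 (9.79e-08). Anapc4, Anapc5, Anapc11 and Cdc23 did not pass in either group.

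In cyclin kinase control, 5 of 8 genes were lower in E2f1 knockout, and 4 were lower and 1 higher in E2f2-labelled livers. Among all genes 7.41% and 7.58% were lower and 13.2% and 14.6% higher. Pkmyt1, which holds CDK1 inactive in G2, fell by 2.27 ± 0.29 (limma adjusted p = 0.000917) and 1.95 ± 0.29. Cks1b fell by 0.68 ± 0.20 and 0.60 ± 0.20, and Cdca2 was at least 1.65-fold and 1.86-fold lower. Ccnf, a cyclin that directs protein destruction in G2, fell by 1.60 ± 0.28 in E2f1 knockout (0.0036) and rose by 0.89 ± 0.28 in E2f2-labelled livers (0.041), a difference between these groups of 2.49 ± 0.28 (0.000475). Cdc25a and Cdc25b differed by -0.04 ± 0.18 and -0.41 ± 0.33 in E2f1 knockout and did not pass.

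Of 16 tested centromere and kinetochore genes outside the 38, 6 were lower and 2 higher in E2f1 knockout, and 5 were lower in E2f2-labelled livers. Among all genes 7.41% and 7.58% were lower and 13.2% and 14.6% higher. Sgo1, the guardian of centromeric cohesion, fell by 1.79 ± 0.32 and 1.70 ± 0.32, and Incenp, the scaffold of the passenger complex, by 1.16 ± 0.26 and 1.19 ± 0.26. Cenpt fell by 0.99 ± 0.20 and 1.15 ± 0.20. Spc24, the partner of Spc25, rose by 1.48 ± 0.31 in E2f1 knockout (limma adjusted p = 0.00741) and differed by 0.64 ± 0.31 in E2f2-labelled livers (0.155). Cenpk and Cenpw differed by 0.05 ± 0.18 and -0.05 ± 0.14 in E2f1 knockout and did not pass.

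The regulators that occupy mitotic promoters were examined next. Of 14 tested genes of the MuvB complex, the pocket proteins, their E2F and DP partners and NF-Y, 1 was called in E2f1 knockout, higher, and 3 in E2f2-labelled livers, of which 1 was lower and 2 were higher. Among all genes 20.6% and 22.2% were called, so these counts are near or below the background. The histone chaperone subunit Rbbp4 rose by 0.60 ± 0.16 (adjusted p = 0.0185) and 0.71 ± 0.16 (0.00851). Rbl1, the pocket protein p107, fell by 1.67 ± 0.31 in E2f2-labelled livers (0.00444), while its -0.78 ± 0.31 in E2f1 knockout did not pass (0.0969). The MuvB core gene Lin37 differed by 0.00 ± 0.24 and 0.11 ± 0.24.

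Markers of tumour and liver cells moved alongside. Of 13 tested tumour and oncofetal markers, 10 were lower in each comparison with wild type, where 7.41% and 7.58% of all genes were. The marker lists too were written with earlier results of these data known. Tumour marker levels, taken on a linear scale relative to the 75th percentile and summed, came to 567, 490, 60.8 and 330 in the wild type livers. The sums were 7.74 to 33.1 in E2f1 knockout and 18.5 to 36.4 in E2f2-labelled livers. Wild type liver 3 had the smallest sum of its group, still above every liver of the other groups. Its median deviation over the mitosis genes was -0.21, between those of livers 1 and 4. Liver 3 was the lowest wild type liver in 12 of the 31 genes and the highest in 0, and liver 1 was the lowest in 19. Whether the tumour marker sum and the mitosis genes go together was not tested. Hepatocyte markers were higher in 12 and 9 of 18 cases, where 13.2% and 14.6% of all genes were. The hepatocyte sum ran from 7610 to 12200 in wild type and from 9910 to 17600 over both other groups.

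Markers of cells that can divide in an inflamed liver were also set beside the genes. Over all genes 7.41% and 7.58% were called lower and 13.2% and 14.6% higher. Of 12 macrophage markers 3 and 4 were lower and 1 higher, with summed levels of 119 to 328 in wild type, 204 to 484 in E2f1 knockout and 126 to 539 in E2f2-labelled livers. Itgax (-3.13 and -4.25), Cd14 (-2.5 and -3.21) and Trem2 (-1.52 and -2.64) were lower in both comparisons. Cd68 was lower in E2f2-labelled livers (-0.94), and Clec4f was higher in both (1.87 and 1.4). These sums of linear levels follow the brightest markers and hardly show such changes. Of 10 T and NK cell markers, 5 were lower in E2f2-labelled livers and none was called in E2f1 knockout (sums 35.2 to 72.9, 27.2 to 47 and 25.9 to 45.2). Neutrophil markers were lower in 5 and 3 of 11 (242 to 416, 179 to 304 and 231 to 315). A large part of each neutrophil sum is Csf3r, which read 7.39 to 7.97 in all livers and was not called. The markers called in E2f1 knockout, S100a8, S100a9, Camp, Ltf and Ngp, changed by -4.01 to -2.62, which the sum hardly shows. Erythroid markers were lower in 2 of 7 and higher in 1 in each comparison (150 to 465, 145 to 221 and 122 to 322).

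Of 7 B and plasma cell markers, 1 was higher in E2f1 knockout and no other call was made (3.42 to 9.59, 6.14 to 8.5 and 3.3 to 5.23). Endothelial markers were lower in 2 of 8 in each comparison, stellate cell markers in 3 of 7 and cholangiocyte markers in 1 of 5. Of all genes, 7.41% and 7.58% were lower. Endothelial sums ran from 54.9 to 72.5, 49.4 to 67.7 and 59.5 to 71.5. Stellate cell sums ran from 72.9 to 155 in wild type and 78 to 108 over both other groups, and cholangiocyte sums from 2.65 to 37.8, 2.41 to 5.56 and 2.68 to 4.17. The part of these cell types in the change of the mitosis genes was not tested.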

How the data were processed

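Scanner output of 12 one-colour arrays, as deposited, was read. Its processed signal is an intensity, linear and already background-subtracted, per the file headers. The submitters' processing notes name Agilent Feature Extraction 10.7.3.1. The authors' deposited value table is on a log2 scale, judged against the scanner values. Its scaling is unstated, so it served as an alternative only. Each array's 75th percentile lay between 119.2 and 238.3 intensity units, and 44.6% to 54.4% of the probes exceeded background. Precision is limited by the number of arrays. Labelling used 50 ng of each RNA, as the labels say. Groups came from titles and characteristics.

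Control and outlier spots were left out, signals were log2-transformed, and each array's 75th percentile over spots that are no controls was subtracted. A probe entered the test when 3 or more of a group's 4 arrays showed it above background (28434 probes), and the brightest stood for each gene (20572 genes). Genes were named through RefSeq accessions (28026 probes), current symbols (3418) or synonyms (295), and 23942 probes kept the file's name. limma 3.58.1 in R 4.3.3 (with the data.table package, version 1.17.8) fitted all 12 arrays without covariates (9 residual degrees of freedom, prior 3.13), with Benjamini-Hochberg adjustment over all genes; its scripts were tested on simulated data. P values of probes other than the brightest come from a fit of all probes. Probe positions are those of the files (mm9), which do not say whether a probe lies in an exon or UTR. Promoters are RefSeq's (GRCm38.p6).

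The 38 genes and all lists were chosen with earlier results of these data known. Values per liver are given for the 2 members with the smallest p for E2f1 knockout in each role of 3 or more tested, all of smaller roles, and Ccnb1, Cdk1, Foxm1, Mybl2, Plk1, Mki67 and Top2a. Of each list of other mitosis genes, up to 4 with the smallest and 2 with the largest p were named. Same-slide livers share a replicate number. Of 12 pairs, 10 had deviations from group means correlating above 0.1 (r from 0.041 to 0.42 across genes). Same-slide livers thus varied together, and the main fit leaves the slide out. No label says that the numbers pair the mice, so they were not taken to do so. The slide is a block of the array layout, fitted as an alternative. Alternatives were other background corrections, scalings, filters, probe choices, a replicate block, 2-group fits, array weights and leaving out each liver. Figures were drawn with matplotlib.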

Additional observations from a re-analysis of the deposited data

Results flagged for a closer look

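In 96 groups of 4 values (31 genes and the median over them, in 3 groups), 7 held 1 liver whose gap to its nearest neighbour divided by the group's range exceeded Dixon's 95% critical value. Chance gives about 1 in 20 such groups. Wild type liver 2 stood above the others in Cdk1 (-1.93, against -2.62 to -2.58), Cdkn3 (-0.77, against -1.74 to -1.64) and Cdca8 (1.14, against 0.62 to 0.69). E2f1 knockout liver 1 stood above the others in Aurka (-1.48, against -2.74 to -2.55), Cdca8 (0.05, against -0.78 to -0.68) and Anln (-2.91, against -3.94 to -3.85). E2f2-labelled liver 3 stood below the others in the brightest Tpx2 probe (-1.71, against -0.80 to -0.66).

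Among probes that were not tested, 2 were above background on an E2f2-labelled array and on no wild type array. The dimmer Foxm1 probe read -3.13 in E2f2-labelled liver 4, with the other 11 livers between -6.11 and -3.32. The Aurkb probe read -2.04 in E2f2-labelled liver 3, with the others between -6.27 and -4.94.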

How the results depend on the processing

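Of 25 genes called lower in E2f1 knockout, 15 kept the call in every alternative that gave them a value and 10 lost it in some. Of 24 in E2f2-labelled livers 18 kept it, and the other 6 lost it with normexp alone. No call reversed. Counts of called members stayed within 18 to 27 and 18 to 27, apart from the 12 and 12 left by requiring all 12 arrays above background, where 17 members are tested. The comparison of E2f2-labelled with E2f1 knockout livers gave 1 lower member with array weights. Medians moved with normexp, to -0.65 and -0.69.

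All genes called (4234, 4565 and 337) moved to 217 (E2f2-labelled against E2f1 knockout) with normexp, 2929 (E2f2-labelled) with median centring, 2789 and 2989 without a filter, 205 (the same comparison) with all arrays above background and 519 (again) with array weights. Leaving out 1 liver gave 2538 (without wild type liver 2) to 4896 for E2f1 knockout and 2757 to 5278 for E2f2-labelled livers. E2f1 knockout liver 3 (2633), wild type liver 2 and E2f2-labelled liver 3 (3043) moved these by over 1.5 times. The share of called genes that were higher, 64.0% and 65.8%, was 50.4% and 49.5% with quantile normalization, where the median of all genes was 0.03 and 0.07, and 50.9% and 47.6% with median centring.

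With the slide as a replicate block 25, 25 and 0 members were lower, and 5488, 6293 and 436 genes were called. The slide is a block of the layout, each slide holding 1 liver of each group, and 11 of 12 arrays correlated best with their own slide.

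Uncalled small changes turned sign: Ndc80 to 0.02 and 0.18 with normexp, and in E2f2-labelled livers to as much as 0.21 (range -0.46 to 0.21) when single livers were left out; Hmmr in E2f2-labelled livers to -0.02 (normexp), -0.03 (median centring), -0.06 (array weights) and -0.04 (without wild type liver 3; range -0.04 to 0.13); Cks2 in E2f1 knockout to -0.01 (quantile, series matrix), -0.05 (median centring), -0.08 (array weights) and between -0.13 and 0.22 without single livers. The mean over probes gave Cdk1 -1.03 (adjusted p = 0.019) and -0.74 (0.0676) and Tpx2 -1.24 (0.027) in E2f2-labelled livers. Each probe was also fitted alone, an alternative chosen after seeing the data: the dimmer tested probe gave Cdk1 -2.19 and -1.79, Tpx2 -2.63 and -2.80. The cause of these changes was not tested. Low signal limits Bub1b, Top2a and Nusap1 to bounds and leaves 7 members without a test.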

Other observations

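Genes that act before mitosis were also read. Of 35 tested genes of G1/S and DNA replication, 5 were lower and 1 higher in E2f1 knockout (median -0.20), and 7 were lower and 2 higher in E2f2-labelled livers (median -0.26). Over all genes 7.41% and 7.58% were lower and 13.2% and 14.6% higher, 20.6% and 22.2% in all. Calls of both directions together were thus near that share in this list. Uhrf1, which copies DNA methylation after replication, was lower in both (-1.39 ± 0.28 and -1.71 ± 0.28; limma adjusted p = 0.00612 and 0.00217). The replicative helicase gene Mcm3 fell by 0.98 ± 0.22 in E2f1 knockout, and its -0.64 ± 0.22 in E2f2-labelled livers did not pass (limma adjusted p = 0.0106 and 0.0575). The ligase gene Lig1 fell by 0.55 ± 0.14 and 0.54 ± 0.14. Mcm10 read 1.18, 1.58, 4.34 and 1.82 in wild type and 4.43 to 5.30 in all 8 other livers. It was higher by 2.52 ± 0.54 and 2.63 ± 0.54 (limma adjusted p = 0.00809 and 0.00642), with wild type liver 3 close to these.

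The promoter windows of these genes looked unlike those of the mitosis genes. Of 32 G1/S genes with a window, 14 (43.8%) held a strict E2F site and 5 (15.6%) held both a CHR and a CCAAT box, where the mitosis genes held 1 of 33 (3.03%) and 22 of 33 (66.7%). Of 94 other mitosis genes with a window, 14 (14.9%) held the E2F site and 34 (36.2%) held both late elements. These are descriptions of letters over lists written from general knowledge but with earlier results of these data known.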
